A study of Danio rerio with 6 samples.

Results

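GFP-positive cells from zebrafish embryos of the line Tg(Fli1:EGFP) were compared at 28 and 24 hours post fertilisation (hpf), with 1 array at each stage. These are 2 of the 6 single-colour arrays of a study of vascular development. The other arrays held Fli1 cells at 18 hpf, GFP-positive cells of a Tg(Flk:GRCFP) line, and whole embryos at 18 and 24 hpf. The Flk array is 18 hpf by its title and 24 hpf by its description, and the title was followed. They enter the results below through the shared normalization and as a scale for how far a gene ranged. All fish were kept at 28C without treatment. The sorted fish were dissociated before flow sorting, and the RNA went through 2 rounds of amplification and Cy3 labelling, per the labels' protocols. The arrays were chosen by their titles, since the source label reads whole larvae for all 6. The labels do not say how many embryos or cells stood behind an array. No condition was repeated, so the differences below have no replicate check, and no p-value is given. Differences between these 2 arrays in quality and in stage cannot be told apart.

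Fli1 is a transcription factor of the ETS family that acts early in the endothelial and blood programme of the zebrafish. Its regulatory sequence drives the reporter in endothelial cells, in blood cells and in neural crest of the pharyngeal arches, so a sort on GFP collects several lineages at once. Around these stages the heart has begun to beat, primitive red cells enter the circulation, and new vessels sprout between the somites. In pooled RNA of this kind, fewer cells of a type and less RNA per cell cannot be told apart.

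Values are normalized log2 signals, from spot intensities corrected for local background and quantile normalized over the 6 arrays. A probe counted as above the control limit where it exceeded the 95th percentile of the 173 Arabidopsis control spots of its array. The array carried 10671 zebrafish genes and unnamed probes, 5004 of them named, with each gene read from its probe of highest mean signal. For most genes described at length, further probes are given where they passed the limit on at least 1 of the Fli1 arrays at 28 and 24 hpf. A gene named without them can have others. Of the 10671, 4565 were above the limit on at least 1 of the Fli1 arrays at 28 and 24 hpf and are called measured, and 2492 of those were named. The limit was passed on both arrays by 2892, at 28 hpf alone by 892 and at 24 hpf alone by 781. Control spots had a median log2 difference (28 hpf minus 24 hpf) of 0.03 with an SD of 0.36, which shows the error of spots without zebrafish RNA only.

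The 28 hpf array stood apart from the other 5. Its Spearman correlation across the measured genes, which are not independent replicates, was 0.55 with the Fli1 array at 24 hpf, 0.66 with the Fli1 array at 18 hpf, 0.58 with the Flk array and 0.41 with each whole-embryo array. The Fli1 array at 24 hpf had 0.72 to 0.81 with the remaining 4 arrays. Measured genes were chosen on the 28 and 24 hpf arrays, so the correlation of this pair is not on a like footing with the others. Similar shares of probes passed the limit, 32.9% at 28 hpf and 32.5% at 24 hpf, but the top of the range differed. After background subtraction, the 99th percentile of intensity stood at 3357 for 28 hpf and 10112 for 24 hpf. Quantile normalization sets these ranges equal, and scaling each array by its 75th percentile does not. Values below are quantile normalized unless another scaling is named.

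At 28 hpf, 482 measured genes were at least 2-fold higher than at 24 hpf (10.6%) and 598 were at least 2-fold lower (13.1%). The 24 hpf spot lay below the limit for 167 of the higher genes, and the 28 hpf spot for 317 of the lower ones. In such a case the fold is printed as a bound, which can be under 2. The split depended on the scaling. In the authors' scaled values, missing spots and spots below the limit were also set to the limit. Their counts, and those under all 3 scalings, thus do not reflect scaling alone. With 75th percentile scaling 191 genes were higher (4.18%) and 707 lower (15.5%), and with the authors' scaled values 121 were higher (2.52%) and 558 lower (11.6%) of 4797. Under all 3 scalings, 106 of the 482 genes were still 2-fold higher and 400 of the 598 still 2-fold lower. Among named genes these counts were 59 of 258 higher and 243 of 355 lower. The higher share among genes that differed was thus 44.6%, 21.3% and 17.8% in these 3 scalings. The 30 gene lists, most of them described below, held 606 measured genes. Of these 44 were higher, and 15 of the 44 were still 2-fold higher with 75th percentile scaling and 8 under all 3 scalings. Of the 133 lower, 126 were still 2-fold lower with 75th percentile scaling and 110 under all 3. The counts of each list are to be set beside the 10.6% higher and 13.1% lower of all measured genes.

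The difference varied with signal. Over all measured genes the median log2 difference was 0.20, or 0.12 with 75th percentile scaling. Genes with a mean log2 signal of 9 or less had a median of 0.16, those between 11 and 12 had 1.13, and those above 13 had -0.24. With 75th percentile scaling the 96 genes above 13 had a median of -1.67 and the 138 between 11 and 12 had 0.19. The share of genes 2-fold higher ran from 5.48% of genes at 9 or below to 52.2% of those between 11 and 12. The difference also varied with position on the array. The medians of the 32 print blocks ran from -0.35 to 0.41, and the fourth column of blocks had a median of -0.05, against 0.22 to 0.29 in the other columns.

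**Figure D1:**
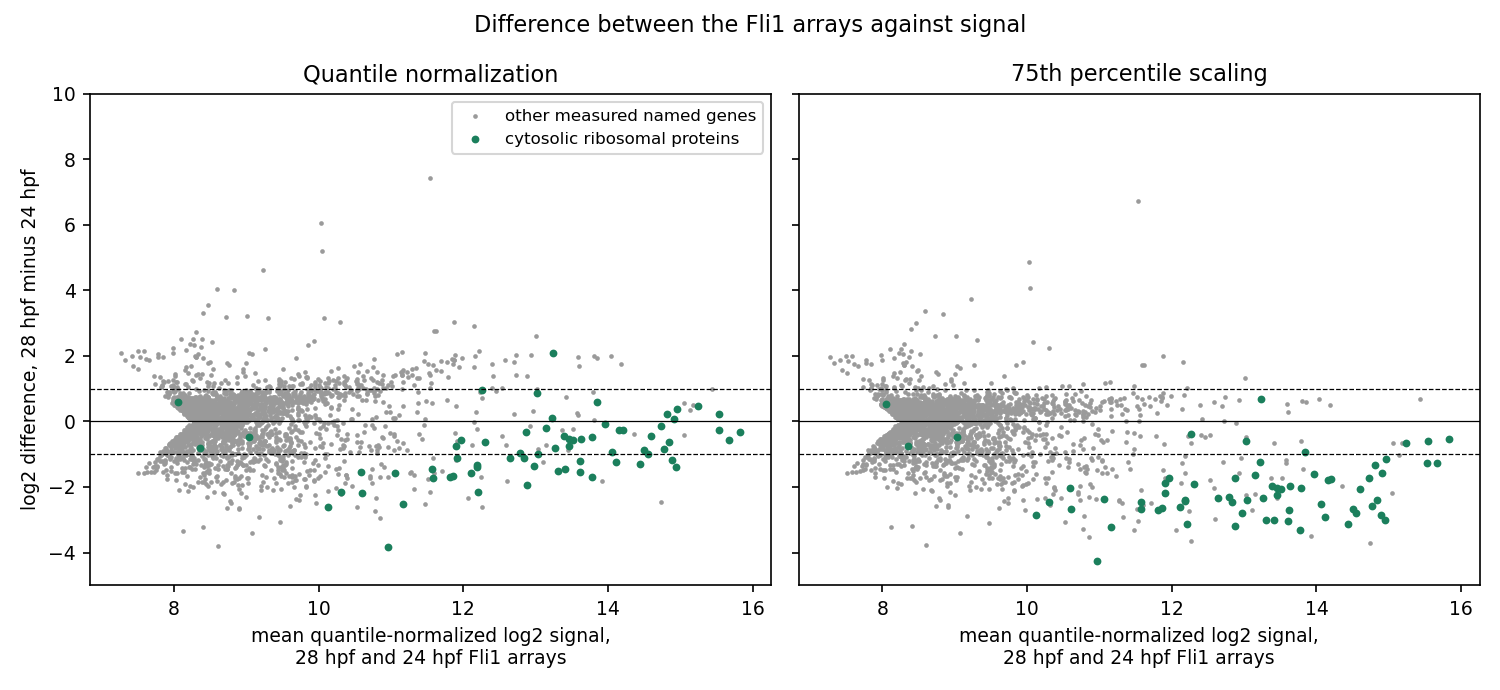
Log2 difference between the Fli1 arrays (28 hpf minus 24 hpf, vertical axis) against the mean normalized log2 signal of the same arrays (horizontal axis) for the 2492 measured named genes, with quantile normalization on the left and 75th percentile scaling on the right. Dashed lines mark 2-fold, and green points are the 69 cytosolic ribosomal protein genes, whose median was -0.84 on the left and -2.30 on the right.

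The genes of protein synthesis had lower signals at 28 hpf. All 69 cytosolic ribosomal protein genes on the array were measured. Of these, 30 were at least 2-fold lower and 1 was higher, 43.5% lower against 13.1% of all measured genes. Their median difference was -0.84, and 58 of the 69 lay below 0, where the median of all measured genes was 0.20. The same 30 genes were 2-fold lower with the other scalings, where the list medians were -2.30 and -2.31. As these are bright genes, they were also set beside others of like signal. Above a mean signal of 13, 40 of them had a median of -0.54, against 0.27 for the 56 other genes. These medians were -2.03 and -1.18 with 75th percentile scaling. On the 28 hpf array 44 of the 69 had their lowest signal of all 6 arrays, against 21.2% of all measured genes.

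Among them, rps25, a protein of the small ribosomal subunit, had a signal of 9.04 at 28 hpf and 12.88 at 24 hpf, while the 4 other arrays lay between 12.94 and 15.19. It was 14.3-fold lower at 28 hpf. A further rps25 probe differed by -0.69, with its 28 hpf spot below the limit. The large-subunit gene rpl5a had 9.90 at 28 hpf and 12.43 at 24 hpf (5.74-fold lower), and its further probes differed by -2.08 and -1.85. For rpl38 the signals were 8.82 at 28 hpf and 11.43 at 24 hpf (6.1-fold lower), but its other measured probe differed by 0.71 in the opposite direction. Further members were rpl13 (4.58-fold lower) and rps26 (4.43-fold lower). The exception was rpl27a, with 14.28 at 28 hpf and 12.20 at 24 hpf, 4.22-fold higher, though only 0.67 on the log2 scale with 75th percentile scaling. The next brightest measured probe of rpl27a differed by -0.02. Whether an oligonucleotide for a ribosomal protein gene also binds related genes cannot be read from the data.

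Translation factors, which load and move the ribosome along mRNA, had the lowest median of the 26 lists with at least 5 measured genes under quantile normalization. Of 50 on the array 36 were measured, with 16 at least 2-fold lower (44.4%), 3 higher (8.33%), and a median of -0.94 (-1.03 with 75th percentile scaling, -0.86 with the authors' scaled values). For 23 of the 36 the 28 hpf array gave the lowest signal of the 6, against 21.2% of all measured genes. The poly(A)-binding protein gene pabpc1a had 9.41 at 28 hpf and 12.14 at 24 hpf, 6.66-fold lower. Its 11 further measured probes all lay below 0, and 8 of them were at least 2-fold lower. The initiation factor subunit eif3c had 9.22 at 28 hpf and 11.83 at 24 hpf, 6.11-fold lower, with further probes at -1.20, 0.16 and 0.57. The elongation factor subunit eef1b2 had 8.51 at 28 hpf and 10.86 at 24 hpf, 5.12-fold lower, with further probes at -1.86 and 0.23, and the initiation factor eif4g2a was 3.64-fold lower. In the same direction, the ribosome-bound scaffold rack1 had 9.38 at 28 hpf and 12.32 at 24 hpf, 7.65-fold lower. The factors eif3ja (2.60-fold), pabpc1b (2.51-fold) and eif6 (2.49-fold) were higher with quantile normalization and under 2-fold with the other 2 scalings. Their next brightest measured probes differed by 0.18, -0.11 and -1.68, in the same order. With probes averaged per gene in place of the brightest, the list median was -0.56.

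Other housekeeping groups leaned the same way, with few members higher. The shares to set beside them are the 13.1% lower and 10.6% higher among all measured genes. Of 33 measured proteasome subunits, which degrade tagged proteins, 11 were lower (33.3%) and 1 higher (3.03%), with a median of -0.74. The ATPase subunit psmc1a was below the limit at 28 hpf with 6.70 and had 10.51 at 24 hpf, at least 4.78-fold lower, and its further probe differed by -1.28. The core subunit psmb1 had 8.29 at 28 hpf and 10.29 at 24 hpf (4.0-fold lower), with a further probe at 0.46. The ATPase subunit psmc5 was 3.52-fold lower, with a further probe at -0.99, and the core subunit psma1 at least 2.0-fold lower.

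Of 41 measured respiratory chain and ATP synthase genes 13 were lower (31.7%) and 0 higher (median -0.74, and -1.08 with 75th percentile scaling). The complex I subunit ndufa8 had 8.83 at 28 hpf and 10.82 at 24 hpf, 3.97-fold lower. The subunits cox6b2 (3.90-fold) of complex IV and ndufa12 (3.66-fold) of complex I were lower too. Of 12 mitochondrial ribosomal proteins 3 were lower (25%) and 0 higher (median -0.39), namely mrpl28 (2.35-fold), mrpl30 (2.19-fold) and mrpl24 (at least 1.84-fold).

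The splicing factor list had 12 members lower (30%) and 1 higher (2.5%) of 40 measured, with a median of -0.53. The SR protein gene srsf6a was at least 2.81-fold lower and lsm12b and sf3a2 were 3.34-fold and 3.23-fold lower. The sole higher member of this list, snrpa of the U1 particle, had 10.65 at 28 hpf and 8.73 at 24 hpf, 3.78-fold higher. Its further probe differed by 0.44. The splicing factor sf1, which the list did not hold, was 4.47-fold higher. The 28 hpf array gave the lowest of the 6 signals for 21 of the 33 proteasome, 23 of the 41 respiratory and 19 of the 40 splicing genes. The share over all measured genes was 21.2%.

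**Figure D2:**
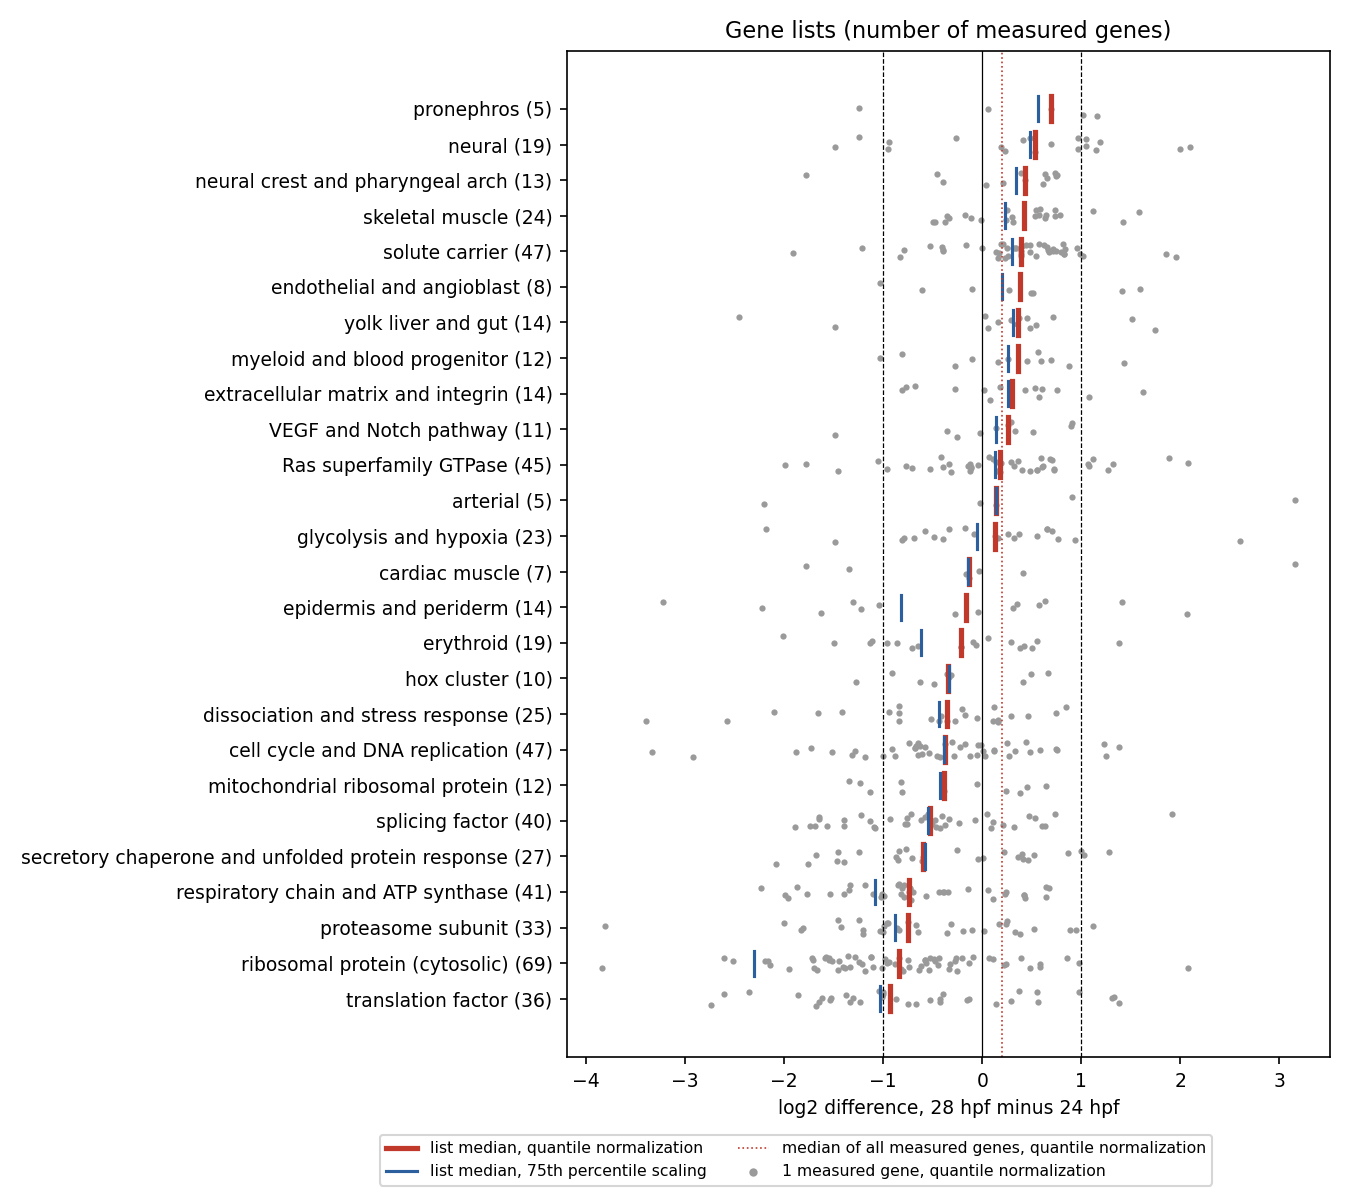
Log2 difference (28 hpf minus 24 hpf, horizontal axis) for the measured genes of the 26 lists with at least 5 measured members, 1 grey point a gene, with the list median under quantile normalization in red and under 75th percentile scaling in blue. The dotted line is the median of all measured genes, 0.20, and dashed lines mark 2-fold; translation factors (-0.94) and cytosolic ribosomal proteins (-0.84) stand at the bottom and pronephros (0.69) and neural genes (0.53) at the top.

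Of 47 measured genes of cell division and replication, 8 were at least 2-fold lower and 3 higher, and the median was -0.37. The 17.0% lower is near the 13.1% of all measured genes. Of the 47, 32 lay below 0, where the median of all measured genes was 0.20. The replication helicase subunit mcm7 was below the limit at 28 hpf with 6.46 and had 9.79 at 24 hpf, at least 2.90-fold lower. Its partner mcm2 had 8.46 at 28 hpf and 10.35 at 24 hpf (3.69-fold lower), while 4 further probes of mcm2 differed by -1.90, -0.27, 0.06 and 0.56. The cyclin G1 gene ccng1 was at least 5.23-fold lower, and the ribonucleotide reductase subunit rrm1 at least 3.12-fold. In the other direction the mitotic kinase plk1 was 2.60-fold and the cyclin ccnf 2.34-fold higher, each under 2-fold with 75th percentile scaling.

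Dissociating tissue for a sort can induce stress genes, and 5 of 25 measured were lower at 28 hpf (20%, against 13.1% of all measured genes), with 0 higher and a median of -0.35. The inducible chaperone gene hsp70.3 had 7.37 and was below the limit at 28 hpf, against 10.77 at 24 hpf. The other 4 arrays had 7.59 to 7.96, all below the limit, so the 24 hpf array alone carried a signal. The bound was at least 5.74-fold lower at 28 hpf, and further hsp70.3 probes differed by -1.97 and -1.29. The cytosolic chaperone gene hsp90aa1.1 was at least 4.02-fold lower and the mitochondrial co-chaperonin hspe1 had 8.32 at 28 hpf and 10.89 at 24 hpf, 5.97-fold lower. On the other 4 arrays hsp90aa1.1 had 9.48 to 10.81 and hspe1 had 10.39 to 11.47, each highest in a whole-embryo array.

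The immediate early gene fosab gave signals of 12.47, 10.50 and 8.84 in Fli1 cells at 18, 24 and 28 hpf, lower at each later stage in these 3 arrays, and 12.92 in Flk cells, against 7.06 in both whole-embryo arrays. It was 3.16-fold lower at 28 than at 24 hpf, and a further probe differed by -1.70. Of the same stress list, ier5 was 2.67-fold lower. The members under 2-fold ran from btg1 (-0.94) to klf6a (0.85). Among them were atf4a (-0.84), socs3a (-0.84), dusp1 (-0.27), egr1 (-0.21), jun (-0.18), junba (0.12) and btg2 (0.74). Of the 25 measured genes of the list, 17 lay below 0 and 8 above. Hypoxia-inducible igfbp1a, a binding protein of insulin-like growth factors, was at least 2.87-fold lower at 28 hpf and above 8 on the 24 hpf array alone. The part of the dissociation itself in these values was not tested.

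Among 27 measured genes of the secretory pathway and the unfolded protein response, 7 were lower (25.9%, against 13.1% of all measured genes) and 2 higher (median -0.60). The translocon subunit sec61g was 4.25-fold lower. Of the same channel, sec61b was 2.43-fold higher, or 0.65 on the log2 scale with 75th percentile scaling. The signal peptidase subunit sec11a was 2.76-fold, tram1 at least 2.87-fold and the disulfide isomerase gene pdia4 at least 1.44-fold lower. With only genes above the limit on both arrays the list median was -0.04.

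Red blood cell genes differed in both directions. Of 19 measured, 4 were at least 2-fold lower (21.1%) and 1 higher (5.26%), against 13.1% and 10.6% of all measured genes. The median was -0.21 (-0.62 with 75th percentile scaling). The embryonic alpha globin genes hbae1.1 and hbae3 had the highest signals of the 6 arrays at 28 hpf. For hbae1.1 the Fli1 signals were 12.88, 14.93 and 15.43 at 18, 24 and 28 hpf, and for hbae3 they were 12.69, 14.78 and 15.33. The differences of 28 hpf over 24 hpf, 0.50 and 0.55, were under 2-fold and became -0.67 and -0.66 with 75th percentile scaling, so these globin genes have no settled direction. The other measured globin genes had lower signals at 28 hpf under all 3 scalings, by under 2-fold with quantile normalization. For hbaa1 the difference was -0.71, or -1.37 with 75th percentile scaling, and for hbba1 it was -0.21, or -0.24. A further hbae3 probe was at 15.09 at 28 hpf and 13.75 at 24 hpf, a difference of 1.33.

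Of the 5 measured enzymes of haem synthesis in this list, alad (0.29), hmbsa (-0.09) and fech (-0.22) were under 2-fold. The remaining pair of the list differed in opposite directions. The first enzyme, alas2, which is specific to red cells, had 10.57, 11.72 and 13.11 in Fli1 cells at 18, 24 and 28 hpf. It was 2.61-fold higher at 28 than at 24 hpf with quantile normalization, but differed by 0.06 with 75th percentile scaling. A later enzyme, urod, had 10.96 at 28 hpf and 12.46 at 24 hpf, 2.83-fold lower, and -2.47 on the log2 scale with 75th percentile scaling. The difference of alas2 thus lay above that of urod under both scalings. The erythroid factor gata1a was at 8.83 at 28 hpf and 8.78 at 24 hpf. The Krüppel-like factor gene klf17, also active in the hatching gland, was below the limit at 28 hpf and at least 2.02-fold lower. The tropomodulin gene tmod4 was at least 1.2-fold lower, but differed by -0.22 with the authors' scaled values. The remaining lower gene, txnb, was 2.16-fold lower and passed 2-fold under all 3 scalings. The summed signal of the 19 genes was 108464 at 28 hpf and 85962 at 24 hpf, against 9448 to 29884 on the other arrays. The ratio of these sums, 28 hpf over 24 hpf, was 1.26, but 0.595 with 75th percentile scaling.

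The ferritin gene fthl31, for iron storage, had 10.96 at 28 hpf and 13.57 at 24 hpf, 6.12-fold lower, where 24 hpf was the highest and 28 hpf the lowest of the 6 arrays. Its further probe differed by -2.11. The polyamine acetyltransferase gene sat1a.2 had 10.21 at 28 hpf and 12.74 at 24 hpf, 5.79-fold lower, with a further probe at -2.54. For both genes, then, each measured probe was more than 4-fold lower at 28 hpf.

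Few endothelial genes could be read. Of the 14 endothelial markers 6 were on the array, and fli1 itself and the VEGF receptor gene flt1 were below the limit at both stages. The gene that names the reporter thus gave no readable signal here. The VEGF receptor gene kdrl had 9.27 at 28 hpf and 8.76 at 24 hpf, a difference of 0.51, from the single probe of 4 above the limit. The angiopoietin receptor gene tek had 9.84 at 28 hpf and 9.58 at 24 hpf, against 7.99 to 8.80 on the other arrays. Both receptors had their highest signal of the 6 arrays at 28 hpf, as did 39.6% of all measured genes, and neither differed 2-fold between the stages.

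Over the list, 8 of 17 endothelial and angioblast genes were measured, with a median of 0.38. Of the 8, 2 were higher (25%) and 1 lower (12.5%), against 10.6% and 13.1% of all measured genes. None of these 3 passed 2-fold under all 3 scalings. The transcription factor gene tal1, shared by blood and endothelium, had 11.59 at 28 hpf and 10.18 at 24 hpf, 2.66-fold higher, or 0.66 on the log2 scale with 75th percentile scaling. Its other probe gave 8.89 at 28 hpf and 10.44 at 24 hpf, a difference of -1.55, so the probes disagree and tal1 has no settled direction. Its partner lmo2 had 10.31, 9.32 and 8.28 in Fli1 cells at 18, 24 and 28 hpf, 2.05-fold lower at 28 than at 24 hpf, while a further probe differed by -0.13. For gata2a the 24 hpf spot was below the limit and the bound was at least 1.03-fold higher. With probes averaged the list median was -0.04. The summed signal was 9108 at 28 hpf and 8492 at 24 hpf, a ratio of 1.07 that became 0.649 with 75th percentile scaling.

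Of 5 measured arterial genes 1 was higher and 1 lower, 20% each, against 10.6% and 13.1% of all measured genes. These genes, tbx20 and efnb2a, thus differed in opposite directions. The T-box factor gene tbx20, best known from the heart, had 11.65 at 28 hpf and 8.50 at 24 hpf, 8.93-fold higher. The other arrays lay between 9.72 and 10.50, so 28 hpf was the highest and 24 hpf the lowest of the 6. The arterial ephrin gene efnb2a was below the limit at 28 hpf with 7.83 and had 10.03 at 24 hpf, at least 3.43-fold lower, but a further probe differed by 0.86. The Notch receptor genes notch1b (0.91) and notch1a (0.14) and the Notch target hey1 (-0.02) were under 2-fold. In the VEGF and Notch list 1 of 11 measured genes was lower (9.09%) and 0 higher, against 13.1% and 10.6% of all measured genes. The lower gene was the repressor her6, 2.80-fold lower at 28 hpf. The venous and lymphatic list had 2 measured genes, ephb4a (-0.54) and dab2 (0.16).

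White cell genes stayed near the shared median. Of 12 measured, 1 was higher and 1 lower, 8.33% each, against 10.6% and 13.1% of all measured genes. The median was 0.36. The lysozyme gene lyz had 10.29, 13.44 and 13.70 in Fli1 cells at 18, 24 and 28 hpf, and its difference of 0.26 became -1.17 with 75th percentile scaling. The peroxidase gene mpx (0.70), the plastin gene lcp1 (0.56), the coronin gene coro1a (-0.81) and the factor spi1b (-0.10) were under 2-fold. The chemokine receptor gene cxcr4b was at least 1.40-fold lower and nccrp1 2.69-fold higher. Both were under 2-fold with 75th percentile scaling, at -0.95 and 0.51 on the log2 scale. The summed signal of the list was 23200 at 28 hpf and 17660 at 24 hpf, a ratio of 1.31 that became 0.648 with 75th percentile scaling.

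**Figure D3:**
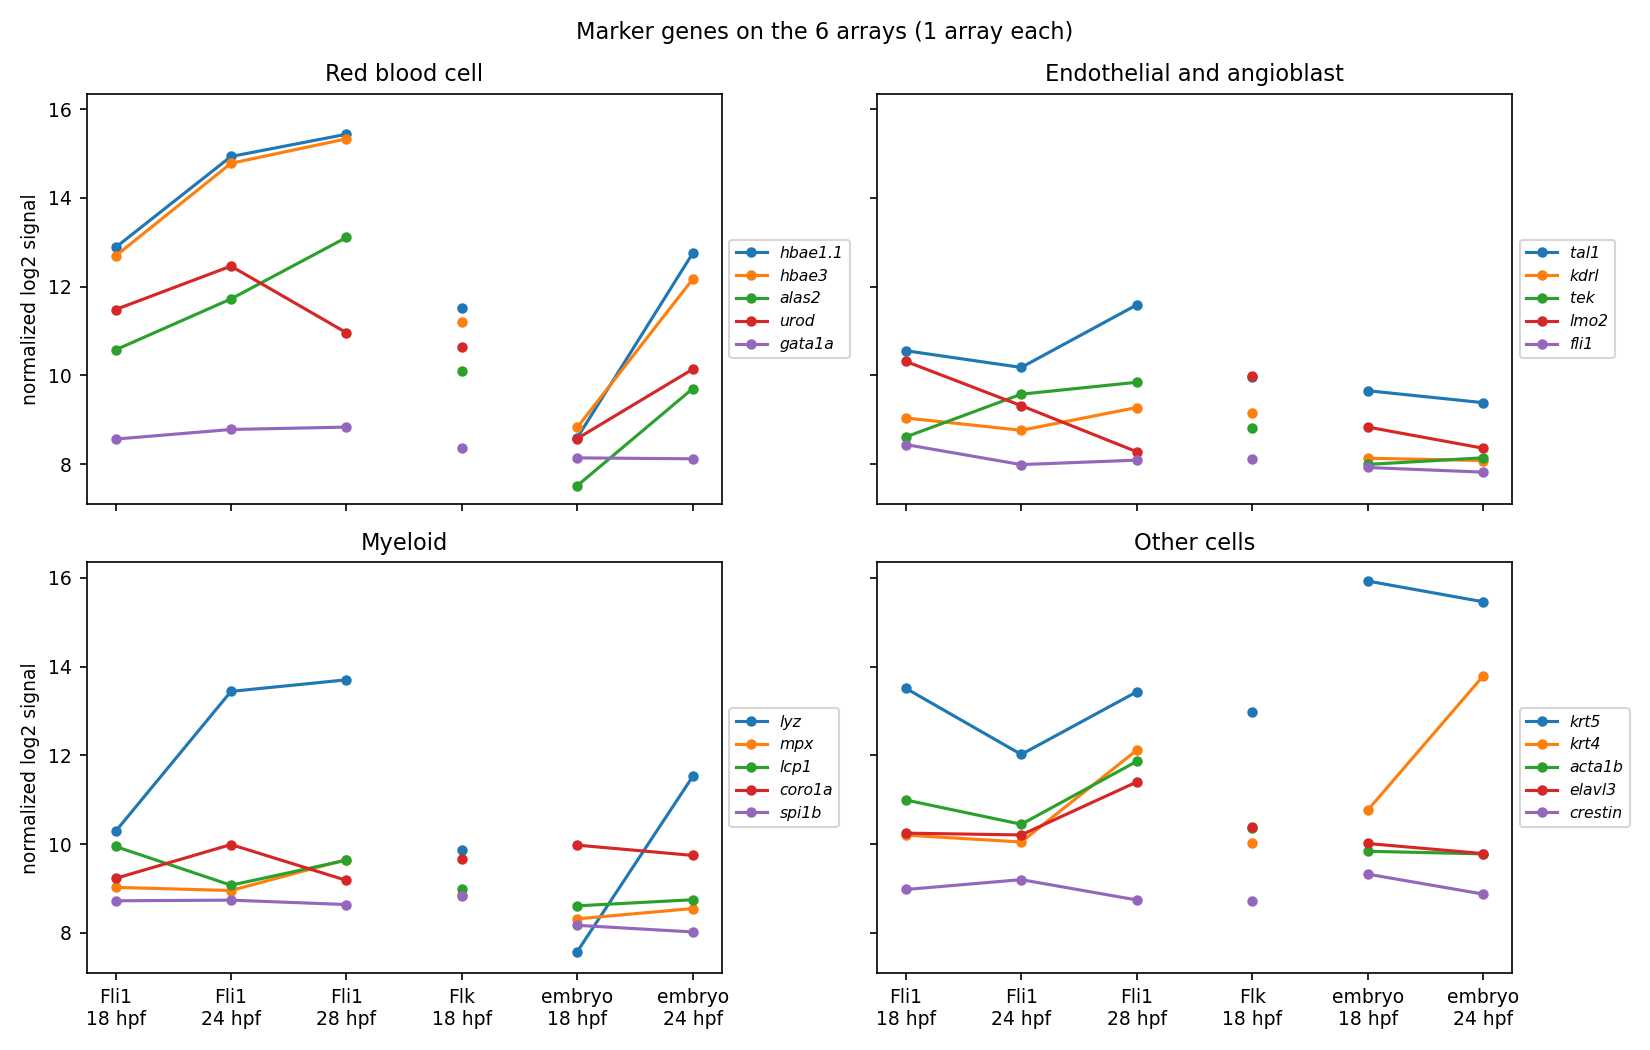
Normalized log2 signal (vertical axis) of marker genes of red blood cells, endothelium, myeloid cells and other tissues on each of the 6 arrays (horizontal axis), 1 array a point, with lines joining stages of the same material. The globin genes hbae1.1 and hbae3 reach 15.43 and 15.33 in Fli1 cells at 28 hpf, while fli1 is at 8.09 at 28 hpf and 7.99 at 24 hpf, below the control limit.

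Neural crest and pharyngeal arch genes, part of the reporter's pattern, were weakly covered. Of 7 defining markers, sox10, foxd3, twist1a and snai2 were below the limit at both stages, and tfap2a (0.65), dlx2a (0.76) and crestin (-0.46) were under 2-fold. In the full list 1 of 13 measured genes was lower (7.69%) and 0 higher, against 13.1% and 10.6% of all measured genes. The lower gene was hand2, a factor of arch and heart, below the limit at 28 hpf and at least 2.56-fold lower.

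Genes of tissues that the reporter does not mark were read as well. Of 14 measured epidermis and periderm genes 6 were lower (42.9%, against 13.1% of all measured genes) and 2 higher (median -0.16, and -0.82 with 75th percentile scaling). The keratin gene krt97 had 10.50 at 28 hpf and 12.13 at 24 hpf, 3.09-fold lower, and its 3 further probes differed by -1.09, -1.44 and -2.53. The ictacalcin gene icn was 4.68-fold lower and krt18b at least 3.41-fold lower. In the other direction krt4 was 4.19-fold higher, with a further probe at -0.91, and krt5 2.66-fold higher, with further probes from -2.29 to 1.53 and a difference of -0.0034 with 75th percentile scaling. The summed signal of the list was 33998 at 28 hpf and 29794 at 24 hpf, against 34094 to 167147 on the other arrays. The ratio of 28 hpf over 24 hpf was 1.14, but 0.554 with 75th percentile scaling, and ppl was below the limit at both stages.

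Of 55 neural genes on the array 19 were measured. Of these, 6 were higher (31.6%, against 10.6% of all measured genes) and 2 lower, with a median of 0.53 (0.48 with 75th percentile scaling). The higher genes otx2b, elavl3 and ascl1a had mean signals between 10 and 12. Of all measured genes, 29.4% were higher at a mean signal between 10 and 11, and 52.2% between 11 and 12. Of the 6, 2 were higher under all 3 scalings, otx2b and otx1. The forebrain and midbrain homeobox gene otx2b had 12.20 at 28 hpf and 10.10 at 24 hpf, 4.29-fold higher. Its relatives otx1 and otx2a were below the limit at 24 hpf, with bounds of at least 2.03-fold and at least 1.39-fold higher. The gene rx2 was also below the limit at 24 hpf, at least 1.24-fold higher. For ascl1a the difference was 2.07-fold, or 0.59 on the log2 scale with 75th percentile scaling. The neuronal RNA-binding protein gene elavl3 was 2.29-fold higher, or 0.50 on the log2 scale with 75th percentile scaling. The other defining neural markers were under 2-fold in both directions, with gfap at 0.96, neurog1 at -0.95 and tubb5 at -0.94. A further tubb5 probe differed by 0.52. The list's summed signal was 16524 at 28 hpf and 10431 at 24 hpf, a ratio of 1.58, or 1.2 with 75th percentile scaling. The lower genes were her6 and pax2a, the second by at least 1.76-fold.

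Skeletal muscle genes had 3 members higher and 0 lower of 24 measured, 12.5% higher and so near the 10.6% of all measured genes (median 0.42, and 0.23 with 75th percentile scaling). The calcium pump gene atp2a1 had 12.41 at 28 hpf and 10.83 at 24 hpf, 2.98-fold higher, and 3 further probes differed by 0.65, 1.1 and 1.52. The actin gene acta1b was 2.67-fold higher, while 3 further probes lay between -0.88 and -0.05. The Z-disc gene ldb3b was 2.17-fold higher, with a further probe at 1.21, and all 3 genes were under 2-fold with 75th percentile scaling. The summed signal was 31948 at 28 hpf and 21342 at 24 hpf, a ratio of 1.5 that became 0.910 with 75th percentile scaling. Of 7 measured cardiac genes 1 was higher (14.3%) and 2 lower (28.6%), against 10.6% and 13.1% of all measured genes. The higher gene was tbx20. Both lower genes were below the limit at 28 hpf, with bounds of at least 2.56-fold for hand2 and at least 1.14-fold for cmlc1. With the authors' scaled values cmlc1 differed by -0.14. The cardiac myosin light chain gene myl7 differed by -0.16.

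Among yolk, liver and gut genes 2 were higher and 2 lower of 14 measured, 14.3% each, near the 10.6% and 13.1% of all measured genes. The cathepsin gene ctslb, strong in the hatching gland, had 13.51 at 28 hpf and 15.96 at 24 hpf, saturated at 24 hpf, and was at least 5.49-fold lower. With ctslb among them, the list's genes summed to 23450 at 28 hpf and 71283 at 24 hpf. The retinol-binding protein gene rbp2a was 3.35-fold and the gluconeogenic gene pck1 2.85-fold higher (pck1 0.68 on the log2 scale with 75th percentile scaling), and the fatty acid carrier gene fabp3 was 2.81-fold lower. The hatching gland and notochord list had 3 of 12 genes measured. Of these, 2 were lower (66.7%, against 13.1% of all measured genes) and 0 higher. The lower genes were ctslb and klf17, which also count in other lists, and the hatching gland factor xbp1 differed by -0.85. All 3 had their lowest signal of the 6 arrays at 28 hpf, against 21.2% of all measured genes. The lens genes cryaa and cryba1b were below the limit at both stages. The part of such cells in the differences between the stages was not tested.

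Matrix and integrin genes had 2 of 14 higher (14.3%, near the 10.6% of all measured genes), the hyaluronan synthase gene has2 by 3.08-fold and the proteoglycan gene dcn by at least 1.76-fold. These differed by 0.71 and 0.96 on the log2 scale with 75th percentile scaling. Pronephros genes had 2 of 5 higher (40%) and 1 lower (20%), against 10.6% and 13.1% of all measured genes. The higher genes were cdh17, by at least 1.74-fold, and hnf1ba, by 2.03-fold, and neither passed 2-fold under all 3 scalings. Of 10 measured hox genes 1 was lower (10%, against 13.1% of all measured genes), hoxa10b by at least 2.42-fold. Solute carriers had 3 higher (6.38%) and 2 lower (4.26%) of 47 (median 0.40), against 10.6% and 13.1% of all measured genes. Among them slc24a4a was at least 2.02-fold higher and the glutamate transporter gene slc1a3a at least 2.54-fold lower. Small GTPases of the Ras superfamily had 7 higher (15.6%) and 4 lower (8.89%) of 45 (median 0.18), against 10.6% and 13.1% of all measured genes. Of the 7, 0 were higher under all 3 scalings. Of these rhogb was 3.69-fold higher, or 0.74 on the log2 scale with 75th percentile scaling. A bound of at least 1.70-fold higher was found for arl3l2, whose difference with the authors' scaled values was 0.77. In the other direction rab42a was 3.99-fold lower, and the nuclear transport GTPase gene ran was 3.44-fold lower with a further probe at -1.99.

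The single genes of largest difference were taken as the 12 largest measured differences and the 6 largest bounds in each direction among named genes that passed 2-fold under all 3 scalings. The homeobox gene gsc (goosecoid), of the embryonic organizer and later the pharyngeal arches, had 15.26 at 28 hpf and 7.82 at 24 hpf, below the limit. The 4 other arrays lay between 7.66 and 8.47, and the bound was at least 127-fold higher at 28 hpf. The glycine-cleavage gene gldc had 13.06 at 28 hpf and 7.01 at 24 hpf, at least 27.7-fold higher, but its 5 further probes were below the limit at both stages. Translin, tsn, a nucleic acid binding protein, had 11.53 at 28 hpf and 6.93 at 24 hpf, at least 9.61-fold higher. These 3 genes, and hprt1l (at least 6.11-fold), lay at 8.47 or below on every array but that of 28 hpf. A further hprt1l probe differed by 0.61, while gsc and tsn had no further probe to read.

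A different pattern was seen for wbp1, whose product binds WW domains. It had 12.65 at 28 hpf and 7.44 at 24 hpf, at least 20.9-fold higher, but 10.41 to 11.60 on the other arrays, so the 24 hpf array lay below that range and the 28 hpf array above it. The same held for grcc10 (at least 5.95-fold). Neither wbp1 nor grcc10 had a further probe to read. In all, 28 hpf was the highest of the 6 arrays for all 18 higher genes, and 24 hpf was the lowest for 8 of them. Of all measured genes 39.6% were highest at 28 hpf and 6.90% lowest at 24 hpf, and the 18 were chosen by their difference between these arrays, so their counts are a description.

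Of the higher genes measured on both arrays, tbx20 led. Next came arfgap1, a regulator of Golgi transport, with 13.39 at 28 hpf and 10.35 at 24 hpf (8.22-fold higher). The forkhead gene foxb1b, of the developing nervous system, had 11.82 at 28 hpf and 8.78 at 24 hpf (8.21-fold higher), close to its 11.37 in Flk cells. The Hsp90 partner chordc1b had 13.61 at 28 hpf and 10.69 at 24 hpf (7.55-fold higher), and a further probe differed by 0.58. The phosphodiesterase gene pde10a was 6.82-fold, the autophagy gene wdr45b 6.74-fold and the glycolytic aldolase gene aldocb 6.07-fold higher. The 6 further probes of aldocb were below the limit at both stages. The magnesium transporter gene nipa2 was 5.43-fold higher with a further probe at -0.69. Calmodulin calm3b (5.01-fold), the splicing factor sf1 (4.47-fold), otx2b and the Wnt-pathway repressor tcf7l1b (4.26-fold) completed the group. In the glycolysis and hypoxia list aldocb was the 1 higher gene of 23 measured (4.35%), and igfbp1a and pgam1a (2.80-fold) were lower (8.70%). The shares of all measured genes were 10.6% higher and 13.1% lower, and the list median was 0.13. Further pgam1a probes differed by -1.22 and -0.15.

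Of the 18 lower genes, 28 hpf was the lowest of the 6 arrays for 16, and 24 hpf the highest for 4, against 21.2% and 12% of all measured genes, and they were chosen in the same way. Beside the genes of translation and stress above, they included the growth factor midkine, mdka, with 8.72 at 28 hpf and 11.21 at 24 hpf (5.6-fold lower). The RNA-binding protein gene lin28ab, which holds back let-7 microRNAs, had 8.53 at 28 hpf and 10.94 at 24 hpf (5.29-fold lower). The RNA-binding protein gene syncrip was at least 3.97-fold lower, with a further probe at -0.40. The G protein subunit gene gnb3b had 7.93 at 28 hpf and 11 at 24 hpf, at least 6.74-fold lower, and 7.59 to 8.03 on the other arrays. Its further probes differed by 0.63 and 0.14, so the gnb3b difference rests on 1 of its measured probes.

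**Figure D4:**
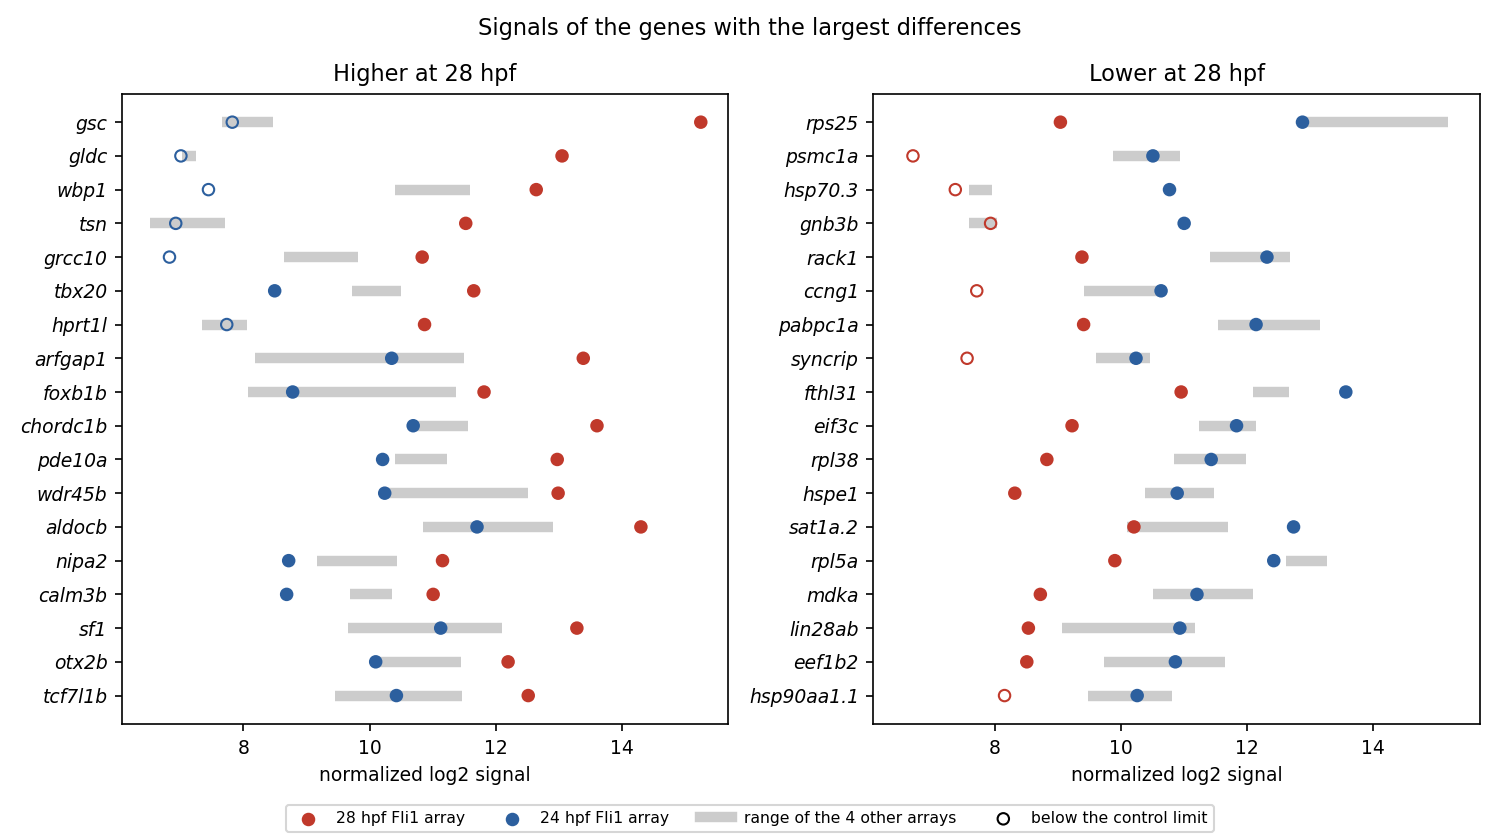
Normalized log2 signals (horizontal axis) of the 18 higher genes (left) and 18 lower genes (right) on the Fli1 arrays at 28 hpf (red) and 24 hpf (blue), with open circles for spots below the control limit. Grey bars give the range of the 4 other arrays; at 28 hpf all 18 genes on the left lie above the bar and 16 of the 18 on the right lie below every other array.

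Genes with several probes allow the differences to be read again within the same arrays. In 558 genes a further probe was measured. Where the brightest probe was at least 2-fold lower at 28 hpf (119 genes), the next probe also lay below 0 for 72.3% and was itself 2-fold lower for 42.0%. Over all 558 genes the next probe lay below 0 for 53.6% and was 2-fold lower for 19.4%. Where the brightest probe was at least 2-fold higher (55 genes), the next lay above 0 for 56.4% and was 2-fold higher for 12.7%, against 7.17% of all 558. The next probe was 2-fold lower for the same share of these 55 genes, 12.7%. Among the 36 genes of largest difference, 12 lower genes had 28 further measured probes, 22 of the same sign and 17 of at least 2-fold. Of these 28 probes, 11 belonged to the single gene pabpc1a, all 11 of the same sign and 8 of at least 2-fold. The higher genes had 3 further measured probes, 2 of the same sign and 0 of 2-fold. Probes of a gene share the RNA, its amplification and the array, so they are no replicates.

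**Figure D5:**
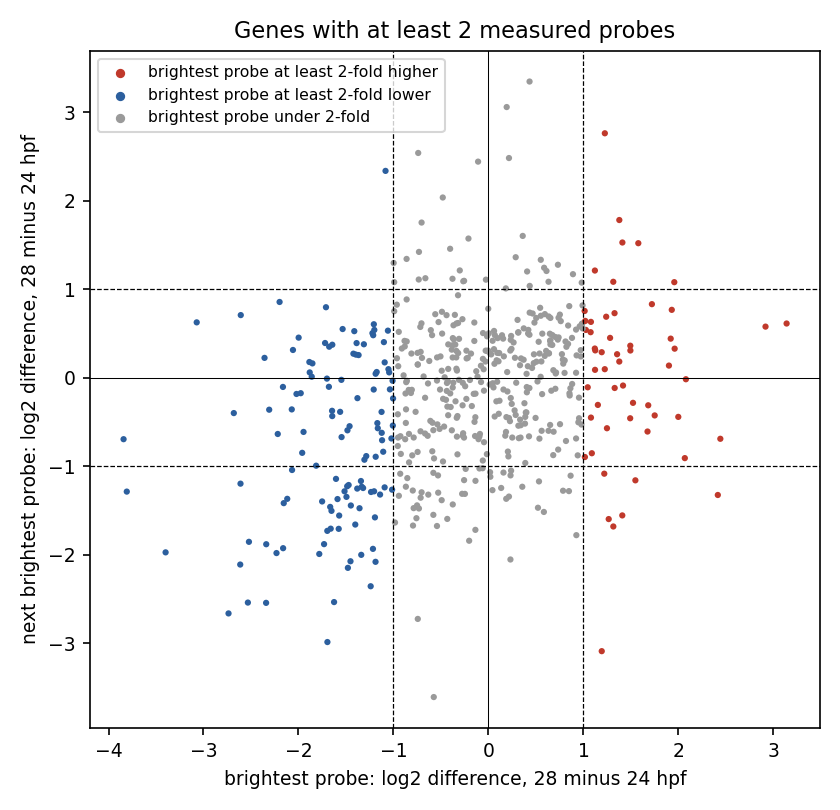
Log2 difference (28 hpf minus 24 hpf) of the brightest measured probe of a gene (horizontal axis) against that of its next brightest (vertical axis) for 558 genes, with dashed lines at 2-fold. Of the 119 blue points (brightest probe at least 2-fold lower) 86 lie below 0 on the vertical axis, and of the 55 red points (at least 2-fold higher) 31 lie above 0.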

How the data were processed

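Per the file headers, the scanner files hold spot and local background intensity at 3 scan settings, a joined background-subtracted intensity and a flag score per spot. The authors' deposited value table holds the joined intensity divided by 1 number per array. It is linear and uncentred, matches the scaled column of the scanner files to within 4.3e-07, and has medians of 0.922 at 28 hpf and 0.856 at 24 hpf. Before differences were taken from the value table, missing values and values below an array's control limit were set to that limit. Print position and probe annotation are the other columns used, per the file headers. The scanner and image software are not given in the sources used here. A second deposited table has 18 columns of measured values that were not used.

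Probes were named through the RefSeq gene table (assembly GRCz12tu, names only). Of 14067 zebrafish probes 8367 were named, covering 5021 symbols, and 68 probes flagged on any array were dropped. Intensities at setting 55 went through normexp background correction (offset 50) and quantile normalization over the 6 arrays in limma 3.58.1 (R 4.3.3). Folds are bounds, written as at least, where the dim spot was below the control limit (set at the lowest signal above it) or the bright spot saturated. A gene was counted at 2-fold or more with the brighter spot above the limit. The array number, 1 a side, limits the precision, and no test was run. Only the comparison step of the code was tested, on a simulated pair of arrays with known shifts. The background correction and normalization were not tested in this way.

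The genes and 30 lists were chosen with earlier results of these data known. Genes named in the text are the 12 largest measured differences and 6 largest bounds in each direction under all 3 scalings, up to 4 members of 2-fold or more of each list, and defining markers, except that some genes are not reported here. Further list members, such as rps26, rpl27a, eif3ja, plk1, sec61b and members under 2-fold, were named after their values were seen. Alternatives were 75th percentile scaling, the authors' scaled values, normalization over the Fli1 arrays, no background correction, joined scans, scan setting 65, both arrays above the limit, a limit at the 99th percentile, the mean over probes, and print blocks centred.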

Additional observations from a re-analysis of the deposited data

How the results depend on the processing

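Across 10 alternatives, the count of genes 2-fold higher at 28 hpf was 482 as reported, 191 with 75th percentile scaling, 121 with the authors' scaled values and 315 with genes above the limit on both arrays. The count lower was 598, and 281 with genes above the limit on both arrays. The share higher among those that differed was 44.6%, against 21.3%, 17.8% and 52.9% in these settings in the same order. List medians moved by more than the control-spot SD of 0.36 as follows. With 75th percentile scaling erythroid genes had -0.62, epidermis -0.82 and cytosolic ribosomal proteins -2.30, and with the authors' scaled values the last 2 had -0.81 and -2.31. With both arrays above the limit, arterial genes had 0.91 and secretory genes -0.042. With the stricter limit, erythroid genes had -0.65, arterial 0.91, cardiac 0.42, matrix 0.75 and mitochondrial ribosomal proteins -0.82. With probes averaged, translation factors had -0.56 and the endothelial list -0.039 against 0.38, the opposite sign. Sign changes across the alternatives were checked for 128 named genes, and not for others such as eif6, rpl27a and plk1. Among these 128, the genes that differed 2-fold and turned were tal1, -0.073 with probes averaged, and krt5, -0.0034 with 75th percentile scaling. A further 6 under 2-fold changed sign in an alternative, 3 of them with 75th percentile scaling, namely hbae1.1 (-0.67), hbae3 (-0.66) and lyz (-1.17). The medians of ribosomal proteins (-2.31 to -0.50), translation factors (-1.03 to -0.56), proteasome (-0.94 to -0.48), respiratory (-1.08 to -0.67) and splicing genes (-0.84 to -0.32) stayed below 0 in all settings run. The print-block setting was added after the data were seen, and moved 14 of 128 named genes by more than 0.36. A dim spot below the limit leaves only a bound for 167 of the higher and 317 of the lower genes. No paired analysis was possible because each condition had 1 array. The causes were not tested.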
